A study of Mus musculus with 6 samples.

Results

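Osr1, Osr2, Twist1, Twist2, Prrx1, Prrx2, Tcf7l2, Hic1, Snai1 and Snai2 encode transcription factors associated with mesenchymal and connective tissue cells. They were followed in PICs and satellite cells from young mouse muscle. The genes were chosen by symbol, with earlier results of these data known. They are 10 of 18193 genes named alone by at least 1 probe set of the array, and every probe set with 1 of these symbols was taken, 20 in all. PICs are interstitial cells of muscle that the field defines by the protein PW1, and satellite cells are the resident muscle stem cells. Both came from the hindlimbs of young mice, 7 to 9 days old, of the strain C57 black 6, and were separated in a cell sorter by CD34 and Sca1. All arrays share this strain, age and tissue, no allele or treatment is given, and each population has 3 arrays described as biological replicates. Nothing in the labels says how many animals stand behind a replicate, so the p-values below measure the spread between these 3 arrays.

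Osr1 and Osr2 are odd-skipped zinc finger factors, and Osr1 marks embryonic limb connective tissue that gives rise to interstitial fibroblasts. Twist1 and Twist2 are basic helix-loop-helix factors that pair with E proteins on CANNTG sites, called E-boxes, and Twist factors can block myogenic factors. Prrx1 and Prrx2 are paired-related homeobox factors of limb mesenchyme, and Tcf7l2, also called Tcf4 in older work, is a partner of beta-catenin known from muscle connective tissue fibroblasts. Hic1 is a repressor found in quiescent mesenchymal progenitors. Snai1 and Snai2 are zinc finger repressors that bind E-boxes and are best known for repressing epithelial genes.

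The arrays had the same median intensity of 10, and 44.7% to 45.5% of probe sets lay above an intensity of 16, a log2 value of 4, taken as the low value level. Known markers followed the labels. Of the fibro-adipogenic markers, 9 of 9 with a probe set were called higher in PICs, and 8 of 8 myogenic markers were called higher in satellite cells. Summed intensities of the myogenic markers were 4089 to 5623 on PIC arrays and 51274 to 56886 on satellite arrays, and 0 of these 8 were at the low level on all arrays of either population. Replicate 1 of both populations held the highest haematopoietic sum, 2598 in PICs and 3415 in satellite cells against 90 to 317 on the other arrays, with Cd3e and Cd79a at the low level throughout. Endothelial sums ran from 1653 to 5484 in PICs and 2904 to 3912 in satellite cells, and 0 of 7 of these markers were called. Schwann and glial sums were 1867 to 2294 in PICs and 259 to 304 in satellite cells, with 3 of 4 markers called higher in PICs and Cdh19 at the low level on the satellite arrays. Ngfr made up most of the PIC sums, at 1593, 1963 and 1429 on replicates 1, 2 and 3. Sox10, at 146, 78 and 43 on these arrays, was not called (limma, adjusted p = 0.107). Mural sums (6204 to 14673 and 9388 to 12976) and tendon sums (18658 to 22086 and 11218 to 17819) overlapped or nearly met, with 1 marker called in each direction in both lists. The part of these cells in the results was not tested. In sorted bulk samples, fewer cells of a type and less RNA per cell cannot be told apart.

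Of the 20 probe sets, 17 lay above the low value level on at least 3 arrays and were tested together with all 18433 such probe sets of 1 symbol. A probe set was called when its adjusted p (limma, Benjamini-Hochberg) stayed below 0.05 and the populations were at least 2-fold apart (1 on the log2 scale). Of the 17 tested, 11 were called higher in PICs, against 15.1% of all probe sets tested. None, 0 of 17, was called higher in satellite cells, against 12.8% of all, and 0 were lower in PICs at an unadjusted p under 0.05. This holds for the main fit, without a replicate block. Alternative fits put Snai2 lower in PICs at adjusted p values under 0.05 (limma), as given below. Calls in either direction made up 27.9% of all. In 13 of the 17 every PIC array lay above every satellite array, against 27.7% of all probe sets, and in 0 the reverse held, against 32.2%. Their median log2 difference was 1.75, and that of all probe sets was -0.07. Counted by gene, with the probe set of highest mean, 7 of 10 genes were called higher in PICs, against 16.6% of genes, and Prrx1, Snai1 and Snai2 were not. Over all genes tested, 29.6% were called in either direction. Twist2 passed the low value filter through its PIC arrays alone. The called probe sets of Osr1 and Osr2 and 1432129_a_at of Prrx1 also needed their PIC arrays to pass. They had 1, 2 and 1 satellite arrays above the level. These counts and medians therefore describe the tested probe sets and support nothing further.

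**Figure D1:**
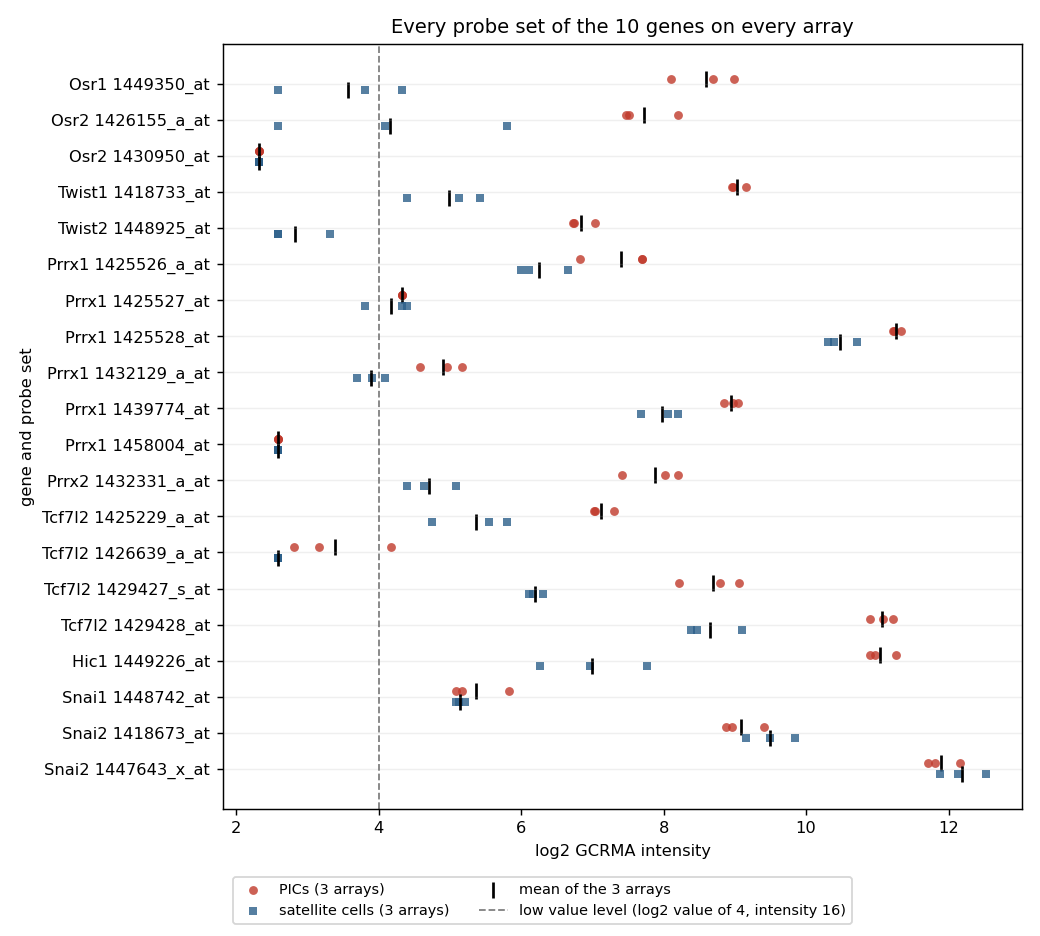
Log2 intensity of each of the 20 probe sets on each array, with the mean of each population and the low value level at 4. Osr1, the tested Osr2 probe set, Twist1, Twist2, Prrx2, Hic1 and the tested Tcf7l2 probe sets are parted between the populations. The tested Prrx1 probe sets are parted too, except 1425527_at, while Snai1 and Snai2 overlap.

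Osr1 had the largest fitted difference of the set. Its probe set 1449350_at read 413, 510 and 276 on PIC replicates 1, 2 and 3 and 14, 6 and 20 on satellite replicates 1, 2 and 3. Every PIC array was above every satellite array, and 1 of the 3 satellite arrays lay above the low value level. PICs averaged 8.60 ± 0.45 on the log2 scale and satellite cells 3.57 ± 0.89 (SD over 3 arrays), a difference of 5.03 (95% interval 3.87 to 6.18; limma, adjusted p = 0.000429). Because the satellite mean lies under the low value level, the size is uncertain. With such values set to that level the difference was 4.49.

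Osr2, its paralog, was also higher in PICs, and its satellite arrays were far apart. Probe set 1426155_a_at read 177, 182 and 295 in PICs, against 6, 17 and 56 in satellite cells. The lowest PIC array was above the highest satellite array, satellite replicate 3. The log2 difference was 3.57 (95% interval 1.66 to 5.47; limma, adjusted p = 0.0105), and the wide interval comes with a satellite SD of 1.61 against 0.41 in PICs (n = 3 each). The difference was 2.78 without satellite replicate 1 and 4.39 without satellite replicate 3, each a move of over 1.5 times in fold, and the call held in both. Without the filter on low values the adjusted p was 0.0648 and the call was lost. A second probe set, 1430950_at, read 5 on every array and was not tested. The difference between Osr1 and Osr2 was not tested.

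Twist1 and Twist2 were both higher in PICs, each on 1 probe set. Twist1 (1418733_at) read 501, 570 and 500 in PICs and 35, 21 and 43 in satellite cells. The PIC arrays lay close together and well apart from the satellite arrays, all of which were above the low value level. The log2 means were 9.03 ± 0.11 and 4.98 ± 0.53 (SD, n = 3 each), a 16.5-fold difference (95% interval 10.5 to 26.1; limma, adjusted p = 0.000178). Twist2 (1448925_at) read 106, 107 and 131 in PICs and 6, 6 and 10 in satellite cells. No satellite array held a measured level of Twist2, so it was at least 7.13-fold higher in PICs (limma, adjusted p = 0.000139; 95% interval of the fitted log2 difference 3.43 to 4.57). Signals of different probe sets have no common scale, so the level of Twist1 is not set against that of Twist2.

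The stretches around the start sites of this pair are shown because both genes were higher in PICs. They run from 250 bases before to 50 bases after the start in RefSeq's GRCm38 annotation, Twist1 at chr12:33957421-33957720 on the plus strand and Twist2 at chr1:91801211-91801510 on the plus strand, 5′ to 3′. Capitals mark matches on either strand to 3 motifs, the E-box CANNTG, the promoter element CCAAT and the core promoter letters TATAAA.
Twist1: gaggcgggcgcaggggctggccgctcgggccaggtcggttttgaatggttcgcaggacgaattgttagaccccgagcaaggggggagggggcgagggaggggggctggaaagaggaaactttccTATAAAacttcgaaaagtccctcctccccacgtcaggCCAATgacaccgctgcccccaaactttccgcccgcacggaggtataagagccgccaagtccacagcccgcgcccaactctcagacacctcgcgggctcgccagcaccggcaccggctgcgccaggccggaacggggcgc
Twist2: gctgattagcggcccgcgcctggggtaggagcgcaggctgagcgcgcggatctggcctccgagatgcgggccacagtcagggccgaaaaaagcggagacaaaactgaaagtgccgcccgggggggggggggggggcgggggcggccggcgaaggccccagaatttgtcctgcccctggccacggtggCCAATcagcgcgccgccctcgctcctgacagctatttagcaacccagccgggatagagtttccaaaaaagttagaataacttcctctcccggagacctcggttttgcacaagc
Each of the pair holds 1 CCAAT, a promoter element found in 37.4% of all 32851 RefSeq promoters of this length. TATAAA, found in 13.6% of all, is present in Twist1. CANNTG, found in 72.3% of all, is in neither window.

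Prrx2 was higher in PICs and Prrx1 was high in both populations. Prrx2 (1432331_a_at) read 170, 259 and 294 in PICs and 25, 21 and 34 in satellite cells. The groups were far apart, and all satellite arrays were above the low value level. The log2 difference was 3.17 (95% interval 2.51 to 3.83; limma, adjusted p = 0.000326), or 8.98-fold.

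Prrx1 has 6 probe sets, 5 of them tested, and its calls depend on the probe set. The probe set of highest mean, 1425528_at, read 2394, 2418 and 2579 in PICs and 1272, 1346 and 1685 in satellite cells. PIC arrays were all above satellite arrays, with a log2 difference of 0.79 (95% interval 0.45 to 1.13; limma, adjusted p = 0.0046) that is under 2-fold. Probe set 1439774_at read 526, 502 and 459 against 205, 268 and 294, a log2 difference of 0.97 (limma, adjusted p = 0.0038). It was called at 1.02, 1.01 and 1.08 without PICs replicate 3, satellite replicate 2 or satellite replicate 3.

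The called Prrx1 probe sets stood close to the thresholds. Probe set 1425526_a_at read 207, 208 and 114 in PICs and 101, 64 and 69 in satellite cells, so PIC replicate 3 was near satellite replicate 1 (difference 1.15; limma, adjusted p = 0.0201). Its adjusted p was 0.0657 and 0.0721 without PICs replicate 1 or 2, 0.0732 and 0.0613 without satellite replicate 2 or 3, and 0.0905 without the filter on low values. Probe set 1432129_a_at read 24, 36 and 31 against 13, 17 and 15, near the low value level on both sides (difference 1.00; limma, adjusted p = 0.00588). It fell under 2-fold without PICs replicate 2 or 3 or satellite replicate 1 (0.87, 0.98 and 0.91), with low values set to the level (0.87) and with quantile normalization (0.88). Probe set 1425527_at read 20, 20 and 20 against 21, 20 and 14 and did not differ beyond its spread (difference 0.15, 95% interval -0.28 to 0.58), and 1458004_at read 6 on every array. With the mean of its tested probe sets Prrx1 differed by 0.81.

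The start site windows of Prrx1 (chr1:163313601-163313900 on the minus strand) and Prrx2 (chr2:30845117-30845416 on the plus strand) are shown because 1 of these paralogs was called on its highest probe set and the other was not, a contrast that was not itself tested. The window, build and capitals are as for the Twist pair.
Prrx1: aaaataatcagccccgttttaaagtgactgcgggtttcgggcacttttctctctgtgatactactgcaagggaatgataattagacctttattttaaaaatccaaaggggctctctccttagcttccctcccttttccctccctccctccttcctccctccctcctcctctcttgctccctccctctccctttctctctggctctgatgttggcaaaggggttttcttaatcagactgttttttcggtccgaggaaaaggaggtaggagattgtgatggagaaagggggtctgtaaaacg
Prrx2: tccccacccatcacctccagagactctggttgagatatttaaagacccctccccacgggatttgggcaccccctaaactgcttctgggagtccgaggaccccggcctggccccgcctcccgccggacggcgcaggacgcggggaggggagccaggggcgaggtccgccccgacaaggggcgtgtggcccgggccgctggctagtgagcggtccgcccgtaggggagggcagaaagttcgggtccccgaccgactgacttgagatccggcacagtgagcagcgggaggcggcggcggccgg
Neither holds any of the 3 motifs, so no letter is in capitals. G and C make up 47.7% of the Prrx1 window and 70.3% of the Prrx2 window.

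Tcf7l2 was higher in PICs on each of its 3 tested probe sets. The brightest, 1429428_at, read 2164, 2382 and 1898 in PICs and 334, 354 and 547 in satellite cells. All arrays of both populations were well above the low value level, and the populations were apart. The log2 difference was 2.41 (95% interval 1.88 to 2.95; limma, adjusted p = 0.000385), or 5.33-fold. Probe set 1429427_s_at, whose suffix marks probes shared by several transcripts, read 535, 442 and 298 against 72, 69 and 79 (difference 2.50). Probe set 1425229_a_at read 130, 158 and 131 against 27, 56 and 47 and gave the smallest of the 3 differences, 1.75 (limma, adjusted p = 0.00312). A further one, 1426639_a_at, read 7, 18 and 9 against 6 on each satellite array and was not tested.

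Hic1 was higher in PICs, with all arrays above the low value level. Probe set 1449226_at read 1898, 2455 and 1996 in PICs and 125, 77 and 217 in satellite cells. The satellite arrays lay above the low value level and far below every PIC array. The log2 means were 11.04 ± 0.20 and 7.00 ± 0.75 (SD, n = 3 each), a 16.5-fold difference (95% interval 8.77 to 30.9; limma, adjusted p = 0.000401).

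Snai1 and Snai2 were not called in either direction in the main fit, which does not pair the replicate numbers. Snai1 (1448742_at) read 34, 57 and 36 in PICs and 34, 37 and 35 in satellite cells. PIC replicate 2 stood above the others, which were nearly equal, and the log2 difference of 0.22 had a 95% interval of -0.30 to 0.74 (limma, adjusted p = 0.432). Without PICs replicate 2 the difference was -0.01, and with array weights it was 0.56 (limma, adjusted p = 0.0178), still under 2-fold. Snai2 was well above the low value level, with 3344, 3585 and 4575 in PICs and 3780, 4509 and 5900 in satellite cells on 1447643_x_at. Its other probe set, 1418673_at, read 468, 499 and 681 against 572, 721 and 919.

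The populations overlapped on both Snai2 probe sets, and at each replicate number the PIC array was the lower one. The log2 differences were -0.29 (95% interval -0.80 to 0.22; limma, adjusted p = 0.293) and -0.42 (-0.98 to 0.14; adjusted p = 0.179). With the replicate number as a block the adjusted p values were 0.0643 and 0.0254, still with differences under 2-fold. With array weights they were 0.0228 and 0.0049, at log2 differences of -0.33 and -0.51. Both intervals exclude a 2-fold difference in either direction. The suffix of 1447643_x_at marks probes that may hybridise to other transcripts.

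The Snai1 window (chr2:167537945-167538244 on the plus strand) is shown as that of a gene without a called difference. It is printed as the windows above.
Snai1: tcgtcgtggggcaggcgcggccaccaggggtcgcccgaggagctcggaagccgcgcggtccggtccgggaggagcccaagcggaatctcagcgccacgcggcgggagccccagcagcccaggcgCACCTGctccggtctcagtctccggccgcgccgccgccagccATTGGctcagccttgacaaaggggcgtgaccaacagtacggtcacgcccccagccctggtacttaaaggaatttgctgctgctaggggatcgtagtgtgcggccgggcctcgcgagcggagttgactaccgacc
It holds 1 CANNTG, which reads CACCTG, the E-box form known for Snail binding and found in 20.2% of all promoters, and 1 CCAAT on the other strand. RefSeq windows were matched for 7 of the 10 genes, 9 windows in all. CANNTG was found in 2 of the 9, the other being 1 of the Hic1 windows, CCAAT in 4 and TATAAA in 2. Osr1, Osr2 and Snai2 were not matched.

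**Figure D2:**
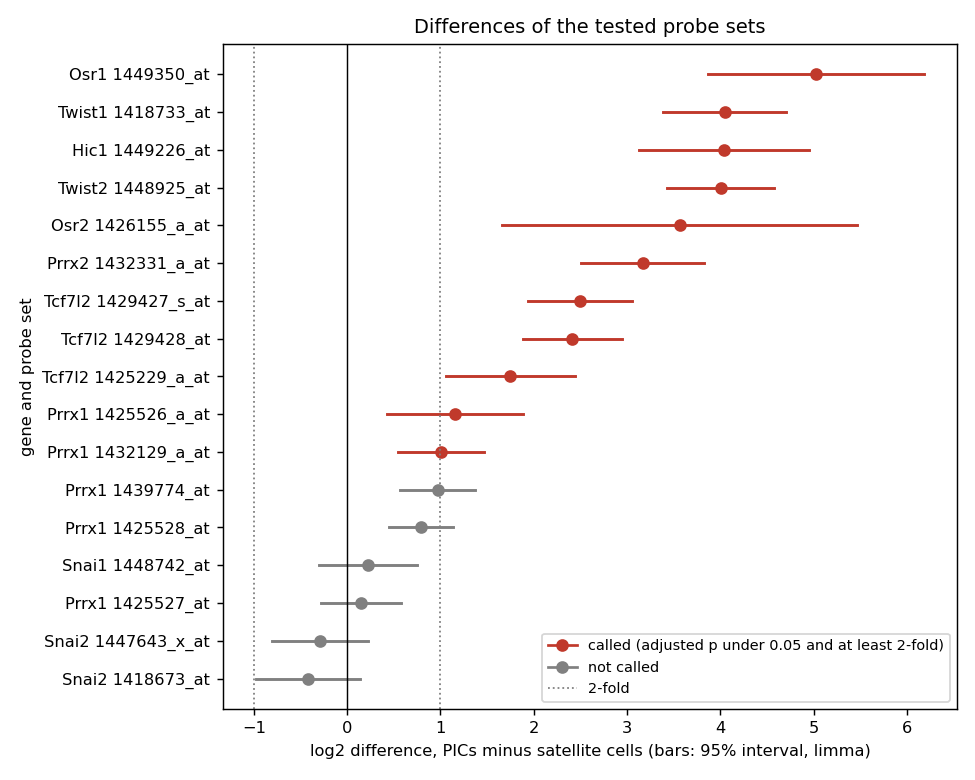
Log2 difference (PICs minus satellite cells) of the 17 tested probe sets with the 95% interval of limma; dotted lines mark 2-fold. The points run from 5.03 for Osr1 to -0.42 for Snai2, and 11 are called higher in PICs.

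Where these genes were low in satellite cells, the satellite arrays were not equal. Of the 11 called probe sets, 7 were above the low value level on all 3 satellite arrays, and satellite replicate 3 was the highest of these arrays in 5 of the 7, those of Twist1, Prrx2 and Hic1 and 2 of Tcf7l2. Mean satellite levels were 6.05% to 45.0% of the PIC level over these 7. The other 4, of Osr1, Osr2, Twist2 and Prrx1, have satellite values under the level that are only upper limits. Of the 9 fibro-adipogenic markers, 6 were above the level on all 3 satellite arrays, at 6.62% to 45.8% of the PIC level, with satellite replicate 3 the highest in 6 of 6. Among these Cd34 was itself used in the sort. Of the remaining markers, Clec3b was at the low level on all satellite arrays. Pi16 and Dpp4 were above that level on satellite replicate 1 alone. Satellite replicates 1, 2 and 3 read 139, 10 and 15 for Pi16 and 32, 8 and 15 for Dpp4. Over all 9 markers satellite replicate 3 was the highest in 6, and over all 11 called probe sets in 8. How often it was the highest among all probe sets called higher in PICs was not counted. These counts therefore do not show a trait particular to these genes. The receptor gene Pdgfra stood at 5.41%, 4.74% and 11.3% of the PIC mean on satellite replicates 1, 2 and 3. The matrix gene Lum stood at 9.18%, 5.65% and 18.3%. Hic1 stood at 5.94%, 3.66% and 10.3%, and Twist1 at 6.70%, 4.02% and 8.23%. Other satellite arrays were the highest for Prrx1 1425526_a_at, at 59.4%, 37.7% and 40.6%, and Tcf7l2 1425229_a_at, at 19.4%, 40.3% and 33.8%. Whether fibro-adipogenic RNA in the satellite samples has a part in these levels was not tested. Without satellite replicate 3 the differences of Twist1, Prrx2 and Hic1 were 4.27, 3.36 and 4.42. Over all arrays left out in turn they ran from 3.75 to 4.27, from 3.01 to 3.40 and from 3.67 to 4.42.

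**Figure D3:**
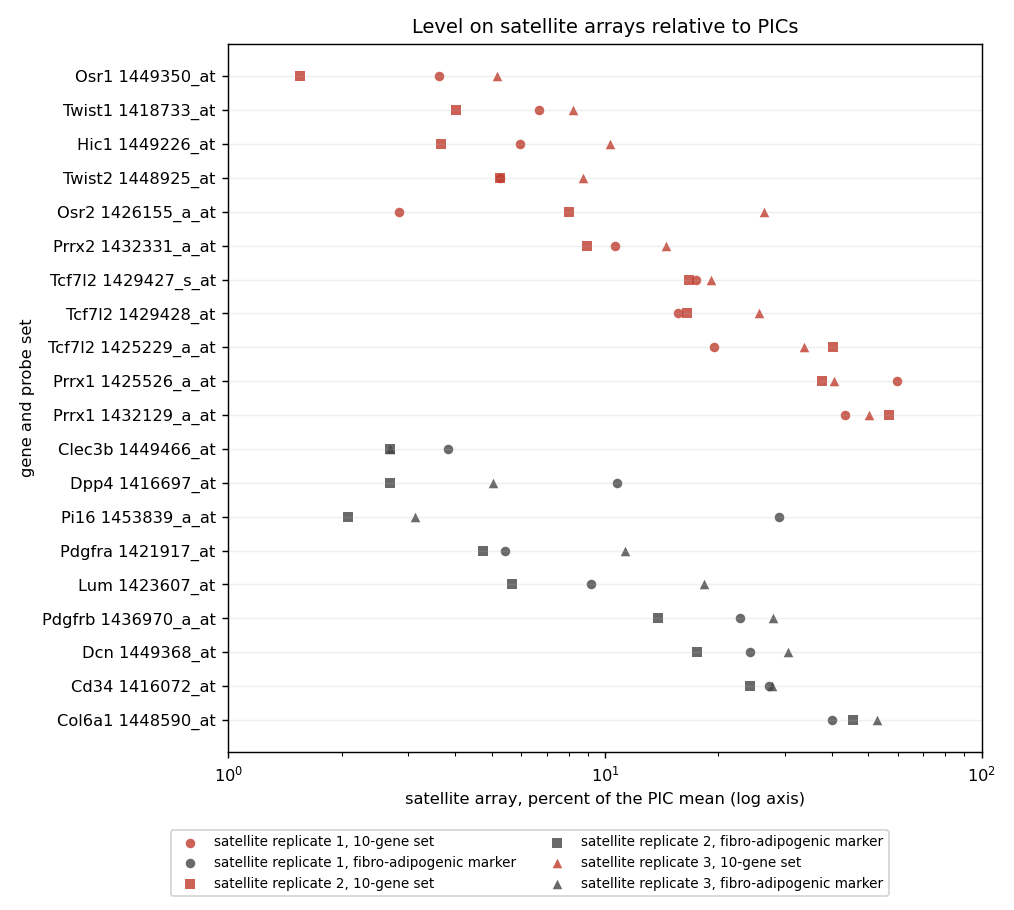
Intensity on each satellite array as a percent of the PIC mean (log axis), for the 11 called probe sets of the 10-gene set and for 9 fibro-adipogenic markers. Among those above the low value level on all 3 satellite arrays, satellite replicate 3 is the rightmost point for 5 of 7 and 6 of 6. Over all shown it is the rightmost for 8 of 11 and 6 of 9. The share among all probe sets called higher in PICs was not counted. Values under the level are only upper limits.

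Partners and relatives of the factors were taken from lists of known genes and read through the highest probe set of each. The background over all 10855 genes tested was 16.6% called higher in PICs, 13.0% called the other way and a median log2 difference of -0.04. Among the E proteins and Id proteins, the dimer partners of Twist factors and their competitors, 0 of 7 were called in favour of PICs and 1, Id1, in favour of satellite cells (median -0.28). At an unadjusted p under 0.05 there were 2 towards PICs and 2 towards satellite cells (limma). Id1, an inhibitor of E protein binding, read 239, 325 and 533 in PICs and 669, 777 and 833 in satellite cells. The populations were apart, with a difference of -1.13 (limma, adjusted p = 0.0211). The call was lost without PICs replicate 1 (difference -0.86), PICs replicate 2 (adjusted p = 0.0711) or satellite replicate 2 or 3 (0.0683 and 0.0635), and without the filter on low values (0.0936). Id4 was close to the threshold, at 1.00 (limma, adjusted p = 0.0532), and another of its probe sets was called at 1.13. Without PICs replicate 1 or satellite replicate 3, 1 gene of this list was called in favour of PICs.

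Of 10 Twist-related helix-loop-helix genes, 2 were above the filter. Msc, also called musculin or MyoR, a repressor of the myogenic lineage, read 1040, 635 and 704 in PICs and 6566, 6306 and 6289 in satellite cells. It was higher in satellite cells without overlap, at -3.04 (limma, adjusted p = 0.00017). Tcf15 differed by 0.94 in the other direction and was not called (limma, adjusted p = 0.0519). Without satellite replicate 1, and with array weights, 1 of these genes was called higher in PICs.

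Shox2, a limb homeobox gene, was the 1 paired-related relative of 5 with a probe set that passed the filter. It read 930, 1014 and 1128 in PICs and 50, 27 and 63 in satellite cells. The populations were far apart, at 4.54 (limma, adjusted p = 0.000191). Alx1, Alx4, Phox2a and Pitx1 were at the low value level on every array.

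Among Tcf7l2's relatives, beta-catenin and the Groucho and CtBP corepressors, 2 of 12 tested genes were called in favour of PICs and 0 in favour of satellite cells (median -0.14; 4 towards PICs and 3 towards satellite cells at an unadjusted p under 0.05). Tle2, a Groucho corepressor, read 168, 208 and 193 in PICs and 68, 70 and 83 in satellite cells (difference 1.36, limma, adjusted p = 0.000561). Tle3, of the same family, went the other way without overlap, at -0.83 on its highest probe set (limma, adjusted p = 0.00173), under 2-fold. Its probe set 1419654_at was called higher in satellite cells, at -1.24 (limma, adjusted p = 0.0258). The highest probe sets of Tle4, Tle1 and Tle5 differed by -0.57, 0.29 and 0.76 and were not called. Bcl9l, a beta-catenin coactivator, differed by 1.10 (limma, adjusted p = 0.0409), and PIC replicate 3, at 125, was close to satellite replicate 1, at 122. Its adjusted p was 0.116 and 0.126 without PICs replicate 1 or 2, 0.100 and 0.113 without satellite replicate 2 or 3, and 0.156 without the filter on low values. Lef1 was at the low value level on every array. Tcf7l1 read 769, 814 and 768 against 500, 528 and 637 and differed by 0.51, under 2-fold (limma, adjusted p = 0.0194). The highest probe set of Ctnnb1 differed by -0.15 (limma, adjusted p = 0.323). Its probe sets 1430533_a_at and 1450008_a_at were lower in PICs without overlap, at -0.67 and -0.45 (limma, adjusted p = 0.0109 and 0.0385), under 2-fold.

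In the list of Snail and Zeb relatives and corepressors, 0 of 11 tested genes were called in favour of PICs and 2 in favour of satellite cells (median -0.49; 1 towards PICs and 8 towards satellite cells at an unadjusted p under 0.05). The replicate block gave 3 higher in satellite cells, averaging the probe sets of a gene gave 4, and leaving out PICs replicate 2 or satellite replicate 3 gave 1. Ezh2 and Suz12, subunits of the Polycomb complex that methylates histone H3, differed by -1.83 and -1.03 (limma, adjusted p = 0.000302 and 0.0012). Ezh2 read 977, 989 and 851 in PICs and 2790, 3585 and 3683 in satellite cells. The highest probe set of Suz12, 1420021_s_at, read 514, 421 and 525 in PICs and 1005, 933 and 1027 in satellite cells. This probe set of Suz12 fell under 2-fold without PICs replicate 2 (-0.93) or satellite replicate 3 (-0.9995). Suz12 probe sets 1427253_s_at and 1452364_at were also called, at -1.36 and -1.27 (limma, adjusted p = 0.00232 and 0.00135). Another, 1420022_s_at, at -0.87, was under 2-fold. On their highest probe sets Zeb1 differed by 0.73 (limma, adjusted p = 0.00322) and Zeb2 by -0.40 (adjusted p = 0.33), neither by 2-fold. Zeb2 probe sets 1434298_at and 1456389_at were lower in PICs without overlap, at -0.53 and -0.50 (limma, adjusted p = 0.0283 and 0.0102), under 2-fold. Another, 1454200_at, differed by -0.26 (limma, adjusted p = 0.614). Snai3, Scrt1 and Scrt2, the other members of the Snail superfamily, were at the low value level on every array.

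Listed epithelial genes were mostly unmeasured, with 12 of 15 not above the filter, among them Cdh1, Krt8 and Grhl2. The 3 tested were called higher in PICs. Krt19 read 80, 111 and 118 in PICs and 9, 5 and 9 in satellite cells, at least 6.35-fold higher. Ocln read 39, 68 and 99 against 5, 6 and 5, at least 4.002-fold higher. Another Ocln probe set read 5 or 6 on every array. Epcam differed by 1.94 on a probe set whose suffix marks possible cross-hybridisation (limma, adjusted p = 0.000473), and its other probe set read 5 on every array. Krt19 and Ocln passed the filter through their PIC arrays alone, so the count of 3 supports nothing about the list.

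Of 13 mesenchymal adhesion and cytoskeleton genes, 5 were called in favour of PICs and 1 in favour of satellite cells (median 0.64). Cdh11, a cadherin of mesenchymal cells, read 5470, 6630 and 6418 in PICs and 342, 348 and 832 in satellite cells (difference 3.73; limma, adjusted p = 0.000464). The populations were apart, and satellite replicate 3 was again the highest satellite array. Mmp14, a membrane protease, differed by 2.26, and the matrix genes Fn1 and Postn by 1.75 and 1.68. Acta2, smooth muscle actin, was higher in satellite cells, at 20566, 20972 and 19289 against 6911, 3801 and 2766 (difference -2.28; limma, adjusted p = 0.00196). The count higher in satellite cells was 2 with the replicate block, and also without PICs replicate 1 or satellite replicate 1. Vim differed by 0.17 (95% interval -0.11 to 0.45) and Cdh2 by -0.06, and neither passed the test.

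**Figure D4:**
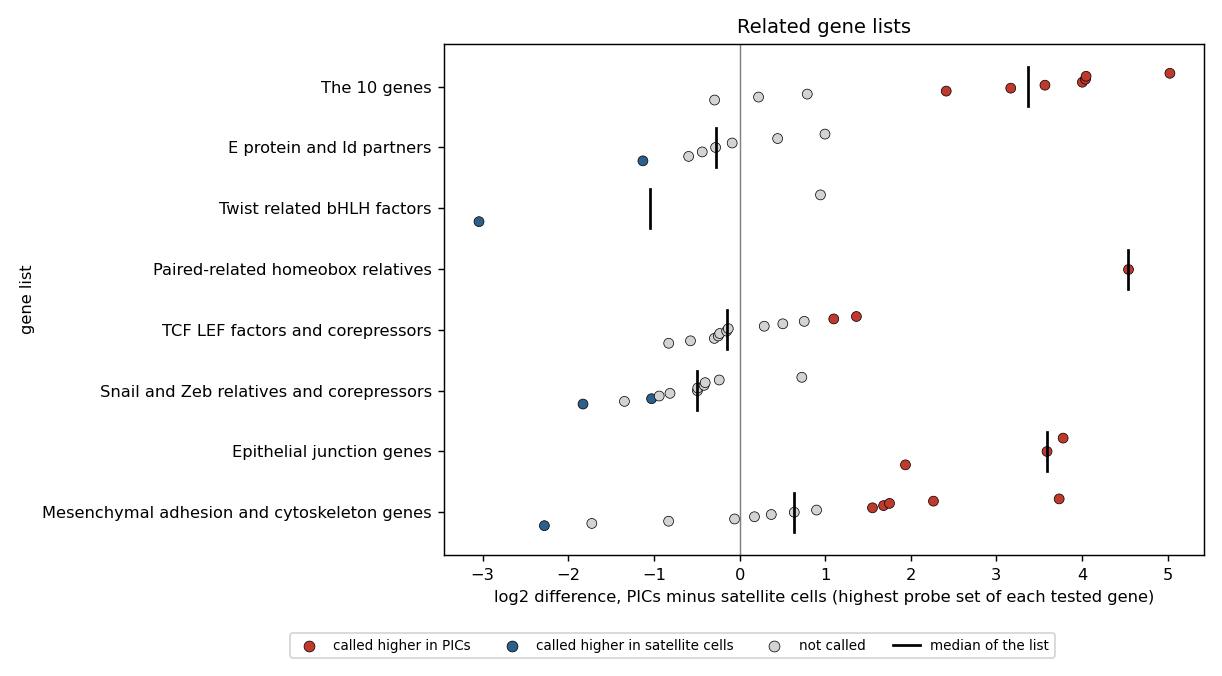
Log2 difference (PICs minus satellite cells) of the highest probe set of each tested gene, by gene list; the vertical bar is the list's median. The 10 genes have a median of 3.37, the paired-related list, with 1 gene tested, lies at 4.54 and the epithelial list, with 3 tested, at 3.59. The other medians are 0.64 for the mesenchymal, -0.14 for the TCF LEF, -0.28 for the E protein and -0.49 for the Snail list. The Twist-related list, with 2 genes tested, at -3.04 and 0.94, has a median of -1.05.

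For each factor the gene of most like profile was sought by Pearson correlation over the 6 arrays, which holds the gap between the populations. The best partners were Osmr for Osr1, Jazf1 for Osr2, Cys1 for Twist1, Igfbp6 for Twist2, Rab2a for Prrx1 and Pde9a for Prrx2. For Tcf7l2, Hic1, Snai1 and Snai2 they were Anxa5, Fkbp1b, 4921531C22Rik and Tsc22d2. The r values were 0.986 for Snai1 to 1.00 for Twist1, as a description. Between 1531 and 1764 genes exceeded 0.95 for each of Osr1, Twist1, Twist2, Prrx2, Tcf7l2 and Hic1, so the partner named is 1 of many. The number was 1224 for Prrx1, 330 for Osr2, 98 for Snai2 and 9 for Snai1.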

How the data were processed

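Each sample was biotin-labelled RNA (200 ng of total RNA) read on an Affymetrix array of its own, per the labels' protocols. The deposited values are GCRMA intensities per probe set, per the submitters' processing notes, on a linear scale rounded to whole numbers; the GCRMA version is not given in the sources used here. GCRMA corrects background by probe sequence, normalizes quantiles and pulls unexpressed probe sets to a floor, so low values have coarse steps. Values were taken to log2. Probe sets were named by the platform annotation (34945 of 45037 with 1 symbol), updated by gene number to RefSeq GRCm38.p6 names. Probe sets above a log2 value of 4 on at least 3 of 6 arrays were fitted with limma 3.58.1 in R 4.3.3 (lmFit and eBayes, two-sided), with Benjamini-Hochberg adjustment over all of them. Where a population had no array above 4, the fold is a lower bound, the other mean minus 4. The precision is limited by 3 arrays per population.

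The genes named are every member, up to 4 called genes of largest difference per list and direction, and uncalled list genes with their values. Id4, Tcf15, Tcf7l1, Ctnnb1, Tle1, Tle3, Tle4, Tle5, Zeb1, Zeb2, Vim and Cdh2 were singled out after their values were seen. So were the further probe sets given for Tle3, Ctnnb1, Suz12 and Zeb2. Members and lists were chosen with earlier results of these data known. Deviations from the population means correlated at 0.616, 0.287 and 0.641 across probe sets between arrays of equal replicate number and at -0.588 to 0.169 otherwise. The numbers were therefore read as pairs in an alternative fit with a block, while the main fit held none. The fit was tested on simulated data. Scan dates and scanner files were not used here.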

Additional observations from a re-analysis of the deposited data

How the results depend on the processing

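A total of 16 alternatives were run, 14 of them on probe sets and 2 on genes. Of the 11 probe sets called higher in PICs, 8 kept their call and direction under every alternative run on them; the exceptions were Osr2 without the filter on low values and the Prrx1 probe sets 1425526_a_at and 1432129_a_at, with values given above. The count was 9 to 11 when each array was left out in turn, and 11 with the replicate block, which changed no call among the 17. With arrays left out in turn, the difference of Prrx1 1425527_at ran from -0.04 (-0.0352, without satellite replicate 3) to 0.26, and that of Snai1 from -0.01 (-0.0134, without PICs replicate 2) to 0.36, with 0.56 under array weights; neither was called. E protein and Id genes called higher in PICs numbered 1 with quantile normalization or array weights and 0 to 1 with an array left out; those higher in satellite cells numbered 0 without the filter on low values and 0 to 1 with an array left out. Twist-related genes higher in PICs numbered 1 with array weights and 0 to 1 with an array left out. TCF and LEF list genes higher in PICs numbered 1 without the filter and 1 to 2 with an array left out. Snail list genes higher in satellite cells numbered 4 with the mean of probe sets and 1 to 3 with an array left out. Mesenchymal genes higher in satellite cells numbered 2 with the replicate block or array weights and 1 to 2 with an array left out. The causes were not tested. The stricter filter removed 1425527_at and 1432129_a_at of Prrx1 and 1448742_at of Snai1, and the fits on genes hold 1 value per gene. Signal near the low value level limits Osr1, Osr2 and Twist2 in satellite cells.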
